A study of Homo sapiens with 12 samples.

Results

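The 8 long noncoding RNAs described here are MALAT1, NEAT1, GAS5, SNHG1, DANCR, TUG1, NORAD and OIP5-AS1, chosen by name from the 65969 gene identifiers of the table. The choice was made with earlier results of these data known. They fall into 2 nuclear RNAs (MALAT1, NEAT1), 3 hosts of small nucleolar RNAs (GAS5, SNHG1, DANCR) and 3 others (TUG1, NORAD, OIP5-AS1). All 8 were matched by identifier and symbol, and all 8 passed the filter on low counts that left 24898 genes. RNA came from human embryoid bodies, aggregates in which pluripotent stem cells differentiate in suspension, after 10 days with doxycycline at 2 µg/ml. Every library, the controls included, came from cells that carried a lentiviral, doxycycline-inducible SMARTvector short hairpin RNA and had been selected with puromycin. The hairpin was a control (SCR) or 1 of 3 against METTL14 (KD1, KD2, KD3), in the human embryonic stem cell lines H1 and MEL1. In H1 each of the 4 hairpins had 2 libraries, and MEL1 had 1 SCR, 2 KD1 and 1 KD2 library. The labels do not say which libraries came from separate cultures, so the p-values measure only the spread between libraries, which may be technical.

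METTL14 belongs to the nuclear enzyme that adds N6-methyladenosine (m6A) to RNA, mostly at an adenosine within a GGACT-like sequence. MALAT1 is an unspliced RNA of nuclear speckles and a classic carrier of m6A, and NEAT1 is the scaffold of paraspeckles. GAS5, SNHG1 and DANCR carry small nucleolar RNAs in their introns, and spliced GAS5 and SNHG1 are known to be removed by nonsense-mediated decay while they are translated. NORAD is a mostly cytoplasmic RNA known for its part in keeping chromosome numbers stable, OIP5-AS1 (cyrano) holds a near-complete target site for miR-7, and TUG1 is a broadly expressed RNA with nuclear and cytoplasmic pools.

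The sequences below are shown because they are elements known to bear on the methylation, stability or binding of 3 of these RNAs. They are DNA letters of GENCODE release 29 transcripts (GRCh38), sense strand. In MALAT1 (transcript ENST00000534336.1, 8708 bases), capitals mark a run of T and the GGACT that follows it. The first GGACT, at bases 2575 to 2579, is the known m6A switch that exposes the T run to HNRNPC.

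MALAT1 GGACT at 2575: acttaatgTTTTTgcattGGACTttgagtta

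MALAT1 GGACT at 2609: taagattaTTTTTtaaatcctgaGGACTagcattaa

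The 3′ end of MALAT1 stabilises the RNA through a triple helix of T-rich stretches with an A-rich stretch. In its stretch from base 8247 to base 8354 of the transcript, capitals mark the T runs and the A run.

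MALAT1 3′ stretch: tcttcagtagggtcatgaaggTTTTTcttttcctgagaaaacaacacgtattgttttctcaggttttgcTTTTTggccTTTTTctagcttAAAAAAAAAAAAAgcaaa

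In NORAD (ENST00000565493.1, 5339 bases, 1 exon), capitals mark TGTANATA, a short element repeated along the RNA, in 3 of its 15 copies.

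NORAD element 1: tggaaggcctgTGTATATAatatgaaaaag

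NORAD element 3: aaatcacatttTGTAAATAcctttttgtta

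NORAD element 5: tgtgtatatagTGTACATAaaggacagacg

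For OIP5-AS1 (ENST00000500949.6), the mature miR-7 from RefSeq (GRCh38.p14) is given in RNA letters with its seed, bases 2 to 8, in capitals. The site at bases 2869 to 2894 has the seed match in capitals.

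hsa-miR-7-5p: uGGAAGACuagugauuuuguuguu

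OIP5-AS1 miR-7 site: aacaacaaaatcaccaatGTCTTCCa

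Of the 24 bases of miR-7, 23 pair with this site around a bulge of 2 bases. The match to the miR-7 seed occurs 3 times in OIP5-AS1, and the other sites pair with 14 and 15 bases.

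GGACT was searched on the sense strand of the longest annotated transcript of each gene, with 84.2% of 5130 long noncoding genes of at least 1000 bases holding it. MALAT1 holds 13 copies, or 1.49 per kb, more than 76.5% of those genes have per kb. NEAT1 holds 19 copies in 22743 bases, TUG1 and OIP5-AS1 hold 7 each, SNHG1 3, NORAD 2, GAS5 1 and DANCR 0. TGTANATA, searched in the same way, occurs in 18.7% of those genes. NORAD is 1 of 3 genes with at least 15 copies, and among the other members NEAT1 holds 6, TUG1 2, SNHG1 and OIP5-AS1 1 each and the rest 0. These matches describe the sequences and carry no measurement of methylation or binding.

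METTL14, the target of the hairpins, was lower in all 9 knockdown libraries than in the SCR libraries of the line. It was at 29.8 and 43.8 CPM (counts relative to the scaled total of the library) in H1 SCR and at 8.90 to 17.7 CPM in the 6 H1 knockdown libraries. It was at 49.9 CPM in MEL1 SCR and at 5.94 to 8.95 CPM in the 3 MEL1 knockdown libraries. The estimated counts summed to 15963241 for MEL1 SCR and to between 36609628 and 43508287 for each of the 11 other libraries, and the 8 RNAs took 0.114% to 0.160% of them. The lines differed in their markers: POU5F1, a pluripotency factor, was at 240 to 878 CPM in MEL1 and 21.3 to 62.2 CPM in H1, whereas PAX6, a neural regulator, was at 0.204 to 2.92 CPM in MEL1 and 95.8 to 224 CPM in H1. Fewer cells of a type and less RNA per cell cannot be told apart in such bulk libraries. Each library also had its own trend with transcript GC content, taken on log2 CPM as deviations from the mean of the line. The values are thus relative to the other libraries of the same line, 4 in MEL1 and 8 in H1. In MEL1 the Spearman correlation over 10405 genes ran from -0.647 (SCR) to 0.434 (second KD1 library). In H1 it was lowest in the second KD3 library (-0.55) and the second SCR library (-0.505). It was highest there in the second KD1 library (0.624).

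Levels between genes were compared as CPM per kb of annotated exons. GAS5 was at 81.0 ± 20.5 CPM per kb (SD, n = 12), SNHG1 at 52.8 ± 8.21, NORAD at 50.2 ± 7.55 and DANCR at 38.3 ± 20.3. TUG1 was at 28.2 ± 4.97 CPM per kb (SD, n = 12), OIP5-AS1 at 12.1 ± 1.17, MALAT1 at 7.44 ± 3.93 and NEAT1 at 0.561 ± 0.134. In this order, neighbours overlapped in range over the 12 libraries except at 2 steps, between TUG1 and OIP5-AS1 and between MALAT1 and NEAT1. GAS5 and SNHG1 were thus high per length and the 2 nuclear RNAs the lowest of the 8. The place of DANCR depends on the line: it was at 25.7 ± 2.74 CPM per kb in H1 (SD, n = 8), below NORAD (52.2) and TUG1 (30.1), and at 63.5 ± 14.8 in MEL1 (SD, n = 4). The order depends on the length used: divided by the median annotated transcript, which is a 480-base fragment for MALAT1, MALAT1 was at 137 CPM per kb, between OIP5-AS1 (192) and DANCR (117). NEAT1 was the lowest by either length (4.05 with the median transcript), so among these 8 RNAs the name abundant fits it least.

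**Figure D1:**
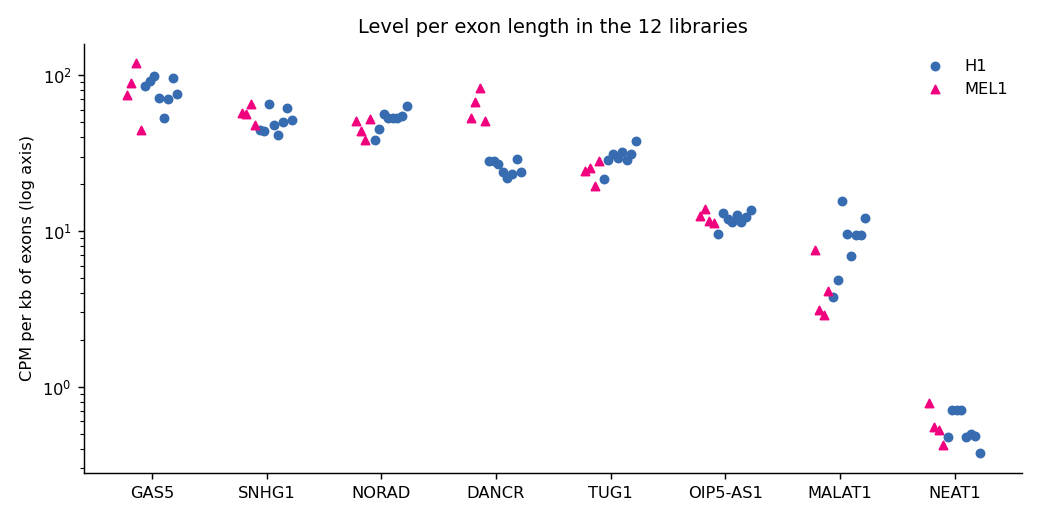
Level of each RNA per kb of annotated exons (CPM per kb, log axis) in the 12 libraries, ordered by the mean, with H1 as circles and MEL1 as triangles. NEAT1 lies below all other RNAs in every library, and DANCR separates into a higher MEL1 set and a lower H1 set.

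MALAT1 rose in H1, and its response to knockdown differed between the 2 lines. MALAT1 (ENSG00000251562, chromosome 11, 65497688 to 65506516, plus strand, GRCh38) was at 33.4 and 42.5 CPM in the H1 SCR libraries. In H1 knockdown it was at 137 and 85.0 CPM with KD1, 61.4 and 83.0 CPM with KD2, and 82.8 and 107 CPM with KD3. All 6 knockdown libraries lay above both SCR libraries, by 2.40-fold on average (log2 1.26, SE 0.21, adjusted p = 0.0126, edgeR quasi-likelihood test). In H1, 2 of the 8 RNAs were called, both higher, where 7.16% of all genes tested were called and 2.23% were called higher. By hairpin, MALAT1 rose with KD1 (log2 1.55, SE 0.25, adjusted p = 0.00749) and with KD3 (log2 1.32, SE 0.24, adjusted p = 0.0262) in the edgeR fit. With KD2 the log2 difference was 0.93 (SE 0.24), which did not pass (adjusted p = 0.103, edgeR), and a difference between the hairpins was not called either (adjusted p = 0.311). MALAT1 was the 1 member called with KD1 and with KD3, where 11.1% and 2.98% of all genes were called. With KD2, where 1.54% of all genes were called, edgeR called 0 members, 4 had an unadjusted p under 0.05 and DESeq2 called 1. Between hairpins, with 3.54% of all genes called, edgeR called 0 members, 1 had an unadjusted p under 0.05 and DESeq2 called 1. In both of these counts the member was NEAT1, not MALAT1. The H1 average of MALAT1 lost its call when 1 of the H1 SCR libraries was left out (adjusted p = 0.0652 without the first and 0.0909 without the second, edgeR), with log2 values of 1.11 and 1.45. The KD3 call was lost in 3 of 12 fits that left out 1 library, those without either H1 SCR library or the second H1 KD3 library (log2 1.13 to 1.51 over the 12, adjusted p up to 0.162, edgeR).

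In MEL1, MALAT1 was at 67.0 CPM in the SCR library, at 27.5 and 25.5 CPM with KD1 and at 36.4 CPM with KD2. All 3 knockdown libraries lay below the single SCR library, at 44.5% ± 8.69 (SD, n = 3) of its level. The log2 difference was -1.11 (SE 0.28, adjusted p = 0.0551, edgeR), under the assumption that the lone SCR library varies like the other groups. With edgeR, 0 of the 8 RNAs were called in MEL1, where 4.45% of all genes were called. At an unadjusted p under 0.05 there were 2, MALAT1 and NEAT1, and DESeq2 called both. The library trends on GC content moved with this comparison, since the MEL1 SCR library had the lowest of the 4 MEL1 libraries. With those trends and the trends on length removed, the MALAT1 difference in MEL1 was -0.81 (adjusted p = 0.120) and the H1 average was 1.32 (adjusted p = 0.00463, edgeR).

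The difference between the lines was tested by taking the effect of KD1 and KD2 in H1 from that in MEL1, which does not test the sign of either effect. For MALAT1 this gave a log2 of -2.35 (SE 0.35, adjusted p = 0.0308 by edgeR). MALAT1 was the 1 member called there, against 0.598% of all genes. With the GC and length trends removed the difference was -2.15 (adjusted p = 0.0195, edgeR). It lost its call without the second MEL1 KD1 library (-2.34, adjusted p = 0.0579) and without the first H1 SCR library (-2.20, adjusted p = 0.0810), and it cannot be computed without the single MEL1 SCR library. Of all genes tested, 1.76% lay above SCR in every H1 knockdown library and below SCR in every MEL1 knockdown library, as MALAT1 did. Averaged over both lines, the MALAT1 difference was 0.27 (SE 0.43, adjusted p = 0.816, edgeR). In that comparison 0 of the 8 RNAs were called by edgeR or by DESeq2 and 0 had an unadjusted p under 0.05, where 0.213% of all genes were called.

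**Figure D2:**
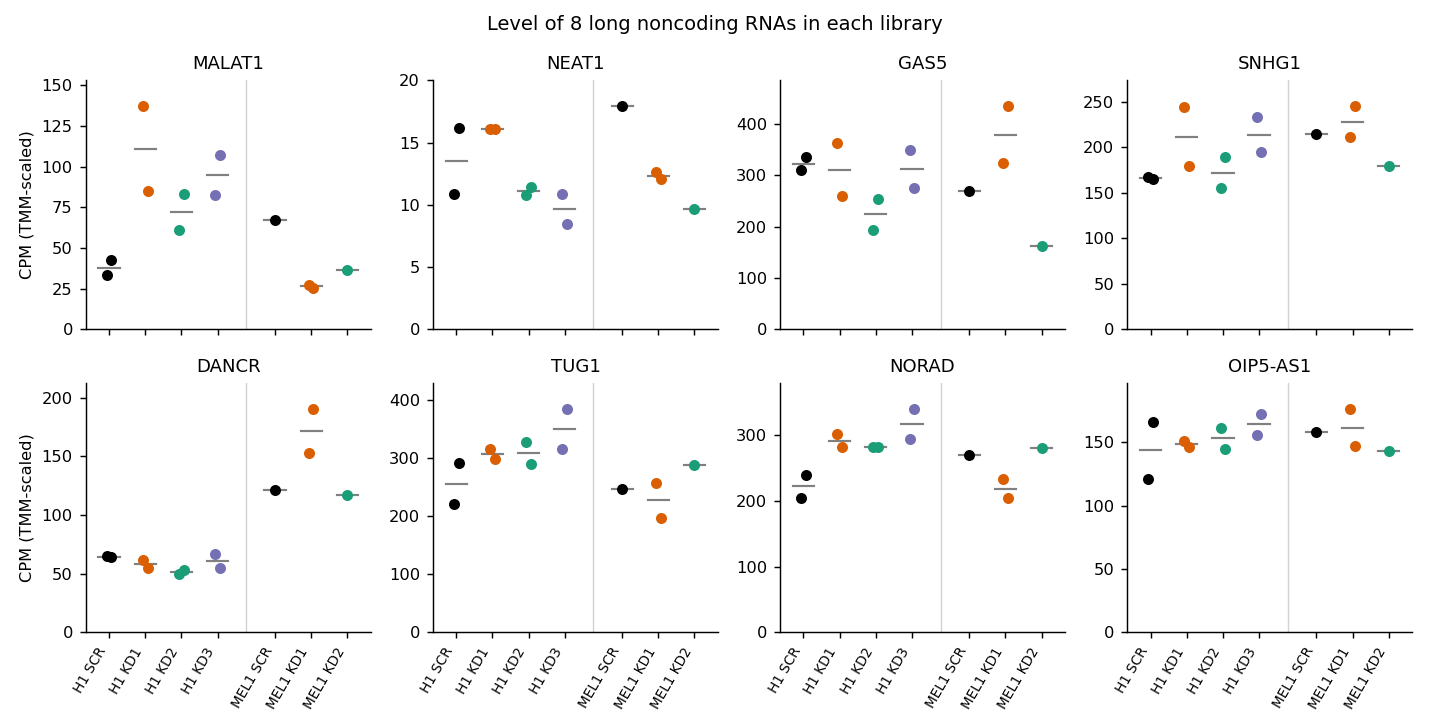
Level of each RNA in every library (CPM after scaling between libraries, axes from 0), by line and hairpin. Points are libraries and grey lines are group means. MALAT1 lies above SCR in all 6 H1 knockdown libraries and below SCR in all 3 MEL1 knockdown libraries, and DANCR is higher in all 4 MEL1 libraries than in any H1 library.

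Cell markers moved with the comparisons in both lines. The summed level of the pluripotency markers POU5F1, NANOG and ZFP42 was 119 and 128 CPM in H1 SCR and 57.7 to 85.9 CPM in H1 knockdown, and all 3 were called lower. The summed level of the neural ectoderm markers PAX6, SOX1 and LHX2 was 182 and 237 CPM in H1 SCR and 307 to 382 CPM in H1 knockdown. In the H1 average 2 of these 3 were called higher, and the remaining 1 had a log2 below 0 and was not called. In MEL1 the pluripotency markers summed to 707 CPM in SCR and 332 to 1069 CPM in knockdown, and the neural ectoderm markers to 5.59 CPM and 9.55 to 12.8 CPM. Most of the MEL1 pluripotency sum was POU5F1, and ZFP42 was called lower in MEL1, from 166 CPM to between 59.4 and 109 CPM (log2 -1.05, SE 0.16, adjusted p = 0.0114, edgeR). The neuronal markers TUBB3, DCX and ELAVL4 summed to 169 and 174 CPM in H1 SCR and 134 to 163 CPM in H1 knockdown, and to 50.5 CPM in MEL1 SCR and 80.0 to 91.8 CPM in MEL1 knockdown. In MEL1 that sum was mostly TUBB3, which was called higher (log2 0.88, SE 0.17, adjusted p = 0.0248, edgeR). The H1 average of TUBB3 was -0.25, and its responses to KD1 and KD2 differed between the lines (adjusted p = 0.0473, edgeR). DCX was at 8.79 CPM in MEL1 SCR and 4.19 to 6.72 CPM in MEL1 knockdown, and ELAVL4 was at 0 in all 4 MEL1 libraries. The endothelial markers KDR, PECAM1 and CDH5 summed to 156 and 160 CPM in H1 SCR and to a median of 76.3 CPM in H1 knockdown, with only KDR called lower, and were at 101 CPM in MEL1 SCR and 59.2 to 92.9 CPM in MEL1 knockdown. Mesoderm markers summed to at most 5.45 CPM and endoderm markers to at most 1.03 CPM in any library. The part of these markers in the levels of MALAT1 and NORAD was not tested.

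NEAT1, whose gene lies beside that of MALAT1, was not called in any comparison by the main edgeR fit. NEAT1 (ENSG00000245532, chromosome 11, 65422774 to 65445540, plus strand) was at 10.9 and 16.2 CPM in H1 SCR. It was at 16.1 CPM in both KD1 libraries, at 10.8 and 11.4 CPM with KD2, and at 10.9 and 8.49 CPM with KD3. The H1 groups overlapped, and the 2 SCR libraries spanned much of the range of the knockdown libraries. The H1 average was a log2 of -0.18 (SE 0.16, interval of 2 SE from -0.50 to 0.15, adjusted p = 0.567, edgeR). The hairpins pointed in different directions, with a log2 difference of KD3 from KD1 of -0.73 (SE 0.20), but this did not pass (adjusted p = 0.0663, and 0.115 for the test over all hairpins, edgeR). Of 8 other settings that kept every library, 3 called NEAT1 in the test over all hairpins, DESeq2 among them. In MEL1, NEAT1 was at 17.9 CPM with SCR, 12.6 and 12.1 CPM with KD1 and 9.68 CPM with KD2, so all 3 knockdown libraries lay below SCR. That difference was a log2 of -0.71 (SE 0.23, adjusted p = 0.105, edgeR). The NEAT1 effect in MEL1 less that in H1 was -0.69 (SE 0.29, unadjusted p = 0.0389, adjusted p = 0.261, edgeR), of the same sign as for MALAT1. MALAT1 and NEAT1 were the 2 members below SCR in every MEL1 knockdown library, which was so for 25.7% of all genes. The ratio of MALAT1 to NEAT1 CPM was 2.62 and 3.07 in H1 SCR and 5.28 to 12.6 in H1 knockdown, without overlap. In MEL1 the ratio was 3.73 with SCR and 2.11 to 3.76 in knockdown, on both sides of the control. The share of all gene pairs that separate as in H1 was not computed.

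The proteins of the 2 nuclear bodies were read from lists that were chosen with earlier results of these data known. Of 12 paraspeckle proteins, 1 was called in the H1 average, a share near the 7.16% of all genes. PSPC1, a core paraspeckle protein, fell from 125 and 120 CPM to between 79.8 and 110 CPM (log2 -0.37, SE 0.10, adjusted p = 0.0433, edgeR). PSPC1 also fell in MEL1, from 195 CPM to between 110 and 140 CPM (log2 -0.67, SE 0.14, adjusted p = 0.0277, edgeR). The list median was -0.11 in H1, beside 0.01 for all genes. In MEL1, 10 of the 12 paraspeckle proteins had log2 values below 0, with a median of -0.23 beside 0.07 for all genes. Of these 12, edgeR called 1 in MEL1, where 4.45% of all genes were called. At an unadjusted p under 0.05 there were 6, and DESeq2 called 4, with no share of all genes to set beside either count. Of 11 nuclear speckle proteins, the splicing factors SRSF3 and SRSF7 were called, both lower, with SRSF3 falling from 621 and 652 CPM to between 335 and 503 CPM (log2 -0.58, SE 0.10, adjusted p = 0.0107, edgeR). SRSF7 went from 297 and 328 CPM to between 172 and 287 CPM (log2 -0.47, SE 0.10, adjusted p = 0.0236, edgeR). The other 9 were not called by edgeR, DESeq2 called 6 of the 11, and the list median was 0.20 in H1. In MEL1 all 11 speckle proteins had log2 values below 0, with a median of -0.32 beside 0.07 for all genes. There edgeR called 0 of the 11, 4 had an unadjusted p under 0.05 and DESeq2 called 3. The MEL1 values of both lists rest on the same single SCR library, so they are not separate observations. That library had the lowest correlation with GC content of the line (-0.647). The share of all genes below 0 and the list values with the GC and length trends removed are not given.

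The 3 snoRNA hosts were called in none of the knockdown comparisons. GAS5 (ENSG00000234741, chromosome 1, 173863900 to 173868882, minus strand), whose spliced RNA is a classic target of nonsense-mediated decay, was at 310 and 336 CPM in H1 SCR. It was at 362 and 260 CPM with KD1, 194 and 254 CPM with KD2, and 349 and 275 CPM with KD3. These values span the SCR level, with KD2 lowest (log2 -0.53, SE 0.21, adjusted p = 0.245, edgeR) and an H1 average of -0.21 (SE 0.17, adjusted p = 0.498). In MEL1, GAS5 was at 270 CPM with SCR, 324 and 434 CPM with KD1 and 162 CPM with KD2, so the hairpins lay on either side of the control.

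SNHG1 (ENSG00000255717, chromosome 11, 62851988 to 62855914, minus strand) was at 168 and 165 CPM in H1 SCR. It was at 244 and 180 CPM with KD1, 155 and 189 CPM with KD2, and 233 and 195 CPM with KD3. Of the 6 knockdown libraries 5 lay above both SCR libraries and 1 below, for an H1 average of 0.25 (SE 0.13, adjusted p = 0.289, edgeR). In MEL1, SNHG1 was at 215 CPM with SCR, 212 and 245 CPM with KD1 and 180 CPM with KD2 (log2 -0.09, SE 0.19, adjusted p = 0.848, edgeR).

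DANCR (ENSG00000226950, chromosome 4, 52712404 to 52720351, plus strand), known for restraining differentiation of progenitor cells, differed between the lines and was called in no knockdown comparison. In H1 it was at 64.7 and 64.1 CPM with SCR, 61.5 and 54.7 CPM with KD1, 49.8 and 53.3 CPM with KD2, and 66.6 and 54.8 CPM with KD3. In MEL1 it was at 121 CPM with SCR, 153 and 190 CPM with KD1 and 117 CPM with KD2. All 4 MEL1 libraries lay above all 8 H1 libraries, which was so for 12.3% of all genes. DANCR was the 1 of the 8 RNAs with this separation, a share near that of all genes. In matched treatments DANCR was 2.32-fold higher in MEL1 (log2 1.22, SE 0.09, adjusted p = 8.43e-07, edgeR), in a comparison that called 49.1% of all genes and 2 of the 8 RNAs. The other was MALAT1, at a log2 of -0.74 (SE 0.17, adjusted p = 0.00461, edgeR), an average of a higher level in MEL1 SCR and lower levels in MEL1 knockdown. Without the MEL1 SCR library, the MALAT1 difference between the lines was -1.53 (adjusted p = 0.000188, edgeR), and leaving out other single libraries gave values up to -0.62. For DANCR the knockdown averages were -0.19 in H1 (SE 0.11, adjusted p = 0.350) and 0.23 in MEL1 (SE 0.16, adjusted p = 0.449, edgeR). The effect of KD1 and KD2 in MEL1 less that in H1 was 0.46 (SE 0.20, unadjusted p = 0.0425), which did not pass (adjusted p = 0.270, edgeR).

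Of 17 further snoRNA hosts, ZFAS1, EPB41L4A-AS1 and TAF1D among them, edgeR called 0 in the H1 average, with a median of -0.03. There were 2 at an unadjusted p under 0.05, and DESeq2 called 0. Between the lines 9 were called higher and 5 lower in MEL1, in the comparison that called 49.1% of all genes. Of 10 factors of nonsense-mediated decay edgeR called 0 in the H1 average, and their median was 0.10. There were 3 at an unadjusted p under 0.05, and DESeq2 called 0. The snoRNAs inside SNHG1 and DANCR could not be followed, since the highest level of any was 0.834 CPM, for SNORA26.

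NORAD (ENSG00000260032, chromosome 20, 36045622 to 36050960, minus strand) rose modestly in H1. It was at 205 and 240 CPM with SCR, 302 and 282 CPM with KD1, 282 and 283 CPM with KD2, and 294 and 340 CPM with KD3. All 6 knockdown libraries lay above both SCR libraries, at 134% ± 10.1 (SD, n = 6) of the SCR mean. MALAT1 and NORAD were the 2 members with this separation, which 8.66% of all genes had. The H1 average was a log2 of 0.42 (SE 0.10, adjusted p = 0.0385, edgeR), and by hairpin 0.39 with KD1 (adjusted p = 0.0687), 0.35 with KD2 (adjusted p = 0.201) and 0.51 with KD3 (adjusted p = 0.0550). The call is thin: it was lost without either H1 SCR library (0.31 with adjusted p = 0.220, and 0.54 with adjusted p = 0.119) and without any of 5 of the 6 H1 knockdown libraries (adjusted p up to 0.0784, edgeR). In MEL1, NORAD was at 270 CPM with SCR, 234 and 204 CPM with KD1 and 281 CPM with KD2, on both sides of the control (log2 -0.12, SE 0.15, adjusted p = 0.680, edgeR). The difference between the lines was -0.49 (SE 0.18, adjusted p = 0.205, edgeR).

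TUG1 (ENSG00000253352, chromosome 22, 30969245 to 30979395, plus strand) was at 221 and 291 CPM in H1 SCR. It was at 316 and 299 CPM with KD1, 327 and 290 CPM with KD2, and 315 and 384 CPM with KD3. The groups overlapped by 1 library, and the H1 average was 0.33 (SE 0.14, adjusted p = 0.186, edgeR). In MEL1, TUG1 was at 246 CPM with SCR, 257 and 197 CPM with KD1 and 288 CPM with KD2.

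OIP5-AS1 (ENSG00000247556, chromosome 15, 41283990 to 41309737, plus strand) varied least of the 8, with a coefficient of variation of 9.62% over the 12 libraries beside 52.8% for MALAT1 and 53.0% for DANCR. It was at 121 and 166 CPM in H1 SCR and at 145 to 172 CPM in the 6 H1 knockdown libraries. In MEL1 it was at 158 CPM under SCR and at 176, 147 and 143 CPM under the hairpins. The averages were 0.11 in H1 (SE 0.12, interval of 2 SE from -0.14 to 0.36) and -0.05 in MEL1 (SE 0.18, interval from -0.41 to 0.30). OIP5, the gene on the opposite strand that gives OIP5-AS1 its name, fell in H1 from 30.1 and 34.0 CPM to between 15.7 and 24.1 CPM (log2 -0.75, SE 0.11, adjusted p = 0.00520, edgeR). In the MEL1 libraries OIP5 was at 27.7 CPM under SCR, within the 21.1 to 33.8 CPM of the knockdown.

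NUSAP1, a spindle protein beside OIP5-AS1, was also lower in the H1 average (log2 -0.40, adjusted p = 0.0459, edgeR). Of 14 neighbour and antisense genes tested, 3 were called there, all lower, where 7.16% of all genes were called. ZBTB37, which overlaps the start of GAS5 on the opposite strand, was at 17.3 and 21.8 CPM in H1 SCR and 27.4 to 42.8 CPM in H1 knockdown (log2 0.74, SE 0.20, adjusted p = 0.0528, edgeR). The strand setting of the counting is not given in the sources used here, so reads of overlapping genes on opposite strands may not have been told apart. On its own strand OIP5-AS1 overlaps a second gene model, ENSG00000285920, which was at 83.9 CPM in MEL1 SCR and 2.80 to 17.9 CPM in the other 11 libraries. How reads were divided between these models was not tested, and the OIP5-AS1 value in MEL1 SCR is uncertain to that extent.

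**Figure D3:**
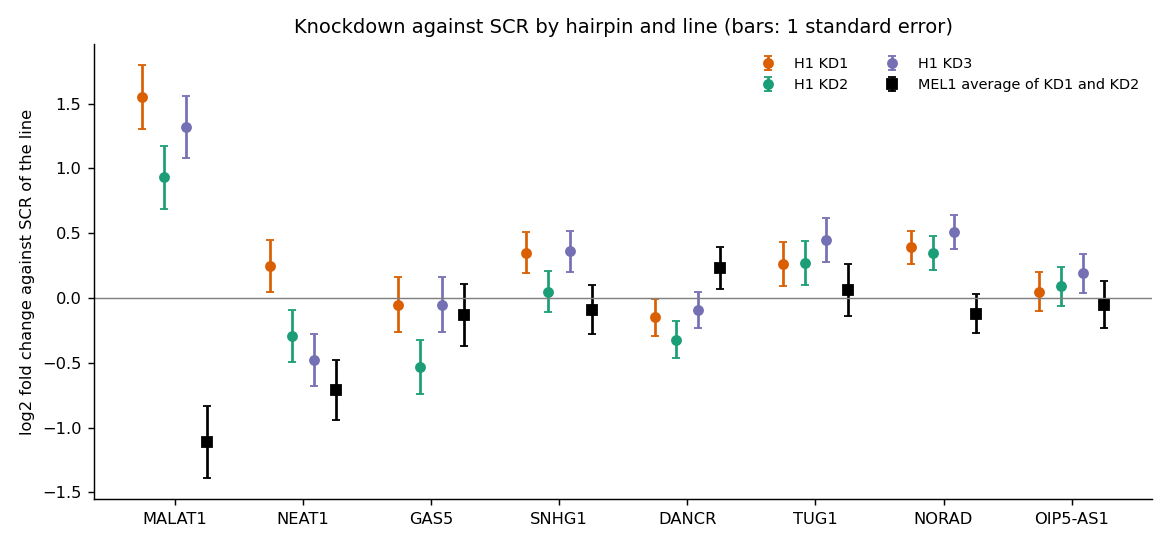
Log2 fold change against the SCR group of the same line for each RNA, by H1 hairpin (circles) and for the MEL1 average of KD1 and KD2 (squares), with bars of 1 standard error. The H1 comparisons share the 2 H1 SCR libraries and MEL1 has 1 SCR library. MALAT1 lies between 0.93 and 1.55 in H1 and at -1.11 in MEL1.

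The 8 RNAs did not move as a group across the 12 libraries. Pearson correlations of their log2 CPM, taken as deviations from the mean of the line, ranged from -0.65 (DANCR with NORAD) to 0.91 (TUG1 with NORAD). GAS5 went with DANCR (0.90) and SNHG1 (0.70), and MALAT1 went with NORAD (0.85) more than with NEAT1 (0.21). NEAT1 had no pair above 0.34. These values describe 12 libraries that share depth, line and library trends with GC content, so they carry no test.

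**Figure D4:**
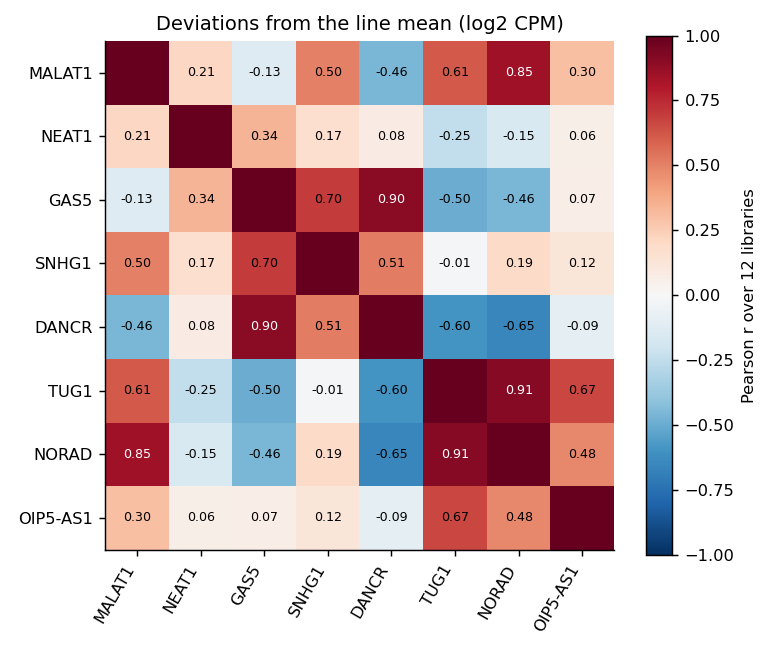
Pearson correlation between each pair of RNAs over 12 libraries, computed on log2 CPM as deviation from the mean of the line (colour from -1 to 1, values printed). The strongest pair is TUG1 with NORAD at 0.91, and the lowest is DANCR with NORAD at -0.65.

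Among 10313 other genes with a symbol and a mean of at least 10 CPM, those with the most similar deviations over the 12 libraries were found in the same way. For MALAT1 they were SRRM1, a coactivator of splicing that resides in nuclear speckles (0.93), EZH1 (0.92) and ZBTB25 (0.92). For NEAT1 they were C1GALT1 (0.88), HERC5 (0.88) and SNAPC1 (0.87). For GAS5 they were TPT1, RPS14 and ZFAS1 (0.98 each), the first a translationally controlled protein gene, the second a ribosomal protein gene and the third another snoRNA host. SNHG1 was nearest to GOLPH3, EPB41L4A-AS1 and AK4 (0.93 each), and DANCR to PGD, UQCRFS1 and NME2 (0.96 each). TUG1 was nearest to TAOK1 (0.99), RICTOR and KIF5B (0.97 each), and NORAD to NEDD4L, BTAF1 and KIAA1958 (0.97 each). OIP5-AS1 was nearest to FEM1B (0.95), RBM27 and QSER1 (0.92 each).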

How the data were processed

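Strand-specific total RNA libraries of 12 embryoid body samples were sequenced, and per the submitters' processing notes fastp and kallisto were used. The authors deposited estimated counts for Ensembl genes with no sign of scaling between libraries, and 14.8% to 20.8% of a library's values are not whole. The build, the annotation and the strand option of the counting are not given in the sources used here. Coordinates, lengths and transcripts are those of GENCODE release 29 (GRCh38), matched by identifier, and 41981 of 65969 identifiers had a symbol.

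Counts were rounded, filtered with filterByExpr over the 7 groups (24898 genes kept) and scaled to CPM with TMM factors. Robust quasi-likelihood F-tests (edgeR 4.0.16, limma 3.58.1, R 4.3.3) were adjusted by Benjamini-Hochberg over all genes kept, with calls made at adjusted p under 0.05. The comparison over both lines used line and knockdown as terms, and all others were contrasts of the 7 group means. Standard errors are the log2 fold change over the square root of F. Single libraries are assumed to vary like the other groups. The precision of a value rests on totals of 15963241 to 43508287 counts. The edgeR fit was tested on simulated data in which 200 genes changed by a log2 of 2: the H1 average recovered 94.5% of them with 8.7% false calls (23679 genes) and the MEL1 average 85% with 4.49% (23724 genes). Apart from that change, the simulated libraries held no differences of line, hairpin or GC trend. A log2 of 2 is larger than any member effect in these 2 averages, so recovery of effects of that smaller size was not tested. The 8.7% of false calls in the H1 average lies above the rate set by an adjusted p under 0.05. Calls of that average near the threshold, NORAD among them, may thus be less certain than their adjusted p states.

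Named genes are METTL14, the 8 members, up to 5 genes per list called over both lines or in the H1 average, OIP5 with TALAM1 as antisense partners, and the 3 genes most like each member. Outside this rule stand the cell markers, KCNQ1OT1, ZBTB37 as a gene overlapping GAS5, and the second gene model on the strand of OIP5-AS1. TALAM1, the antisense partner of MALAT1, was not matched to an identifier and has no value. Whether reads of TALAM1 entered the MALAT1 counts was not tested. The members and the gene lists were chosen with earlier results of these data known. Replicates are numbered in accession order, only to name libraries. Alternatives were other scalings and filters, DESeq2 1.42.0, a fit that is not robust, removal of library trends on GC content (spline of 5 degrees of freedom) and transcript length (4), which 90.6% of genes had, H1 by itself, a fit of group means and leaving out each library. Some neighbouring genes and genes of binding proteins are not reported here.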

Additional observations from a re-analysis of the deposited data

Results flagged for a closer look

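MALAT1 responded differently in the 2 lines: the effect of KD1 and KD2 in MEL1 less that in H1 was -2.35 on the log2 scale (SE 0.35, adjusted p = 0.0308 by the edgeR quasi-likelihood test), with all 6 H1 knockdown libraries above their SCR libraries and all 3 MEL1 knockdown libraries below theirs. MEL1 SCR is 1 library of 15963241 counts, the shallowest of the 12, and its part in the difference cannot be told apart from that of the line.

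NORAD in the second H1 KD3 library, at 340 CPM, stood apart from the other 5 H1 knockdown libraries, which lay between 282 and 302 CPM. The gap to its neighbour was 0.657 of the range of the 6 libraries, which pool 3 hairpins, above the limit of 0.625 for 6 values. The same library was also the highest of the 6 for TUG1 (0.609) and OIP5-AS1 (0.424), both under the limit. It had the lowest correlation with GC content in H1 (-0.55), and the part of the library as a whole was not tested. Of the 8 RNAs checked in this way 1 passed the limit, and chance alone would pass about 1 in 20 groups. Without that library the H1 average of NORAD was 0.38 (adjusted p = 0.0719, edgeR).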

How the results depend on the processing

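No paired analysis was possible because the labels carry no replicate numbers. Of 21 other settings, 19 kept the call of MALAT1 in the H1 average (log2 1.11 to 1.45) and 14 kept that of NORAD (0.31 to 0.54), and losses came only from leaving out H1 libraries. The MALAT1 difference between lines was called in 17 of 19 (-2.88 to -2.15), and its MEL1 average in 8 of 19 (adjusted p from 3.61e-08 without a filter to 0.120 with the GC and length trends removed). DANCR between lines was called in 20 of 20 (1.13 to 1.36). Nothing in MEL1 or between the knockdown effects can be computed without the single MEL1 SCR library.

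The number of the 8 RNAs called differed as follows, and the cause was not tested. For KD1 it was 1, with 2 under upper-quartile scaling, no filter, a mean of at least 1 CPM or DESeq2, 3 with the trends removed, and 1 to 2 when leaving out libraries. For KD2 it was 0, with 2 without a filter and 1 under DESeq2 or with the trends removed. For KD3 it was 1, with 2 under median-of-ratios or upper-quartile scaling, a mean of at least 1 CPM or DESeq2, 3 without a filter, and 0 to 2 when leaving out libraries. Between hairpins it was 0, with 3 without a filter, 1 under DESeq2 or with the trends removed, and 0 to 1 when leaving out libraries. In MEL1 it was 0, with 1 under either scaling, no filter or a mean of at least 1 CPM, 2 under DESeq2, and 0 to 1 when leaving out libraries. Leaving out libraries gave 0 to 2 for the H1 average and 0 to 1 for the difference between lines.

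Signs turned only for members that were not called. With the trends removed GAS5 was at 0.09 and DANCR at 0.08 over both lines, GAS5 at 0.16 with KD1, GAS5 at 0.16, SNHG1 at 0.18, NORAD at 0.15 and OIP5-AS1 at 0.18 in MEL1, TUG1 at 0.02 in the difference between lines and OIP5-AS1 at -0.09 in MEL1 against H1. Upper-quartile scaling gave 0.01 for GAS5 with KD1 and -0.01 for TUG1 in MEL1, and TUG1 in MEL1 was at -0.0039 under median-of-ratios scaling and DESeq2.

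Leaving out libraries gave, over both lines, -0.19 to 1.29 for MALAT1, -0.19 to 0.01 for GAS5, -0.18 to 0.06 for DANCR and -0.06 to 0.17 for OIP5-AS1. The H1 average ranged from -0.42 to 0.14 for NEAT1 and from -0.09 to 0.35 for OIP5-AS1. With KD1 the range was -0.28 to 0.16 for GAS5 and -0.13 to 0.29 for OIP5-AS1, with KD2 -0.55 to 0.02 for NEAT1, -0.10 to 0.18 for SNHG1 and -0.12 to 0.33 for OIP5-AS1, and with KD3 -0.23 to 0.11 for GAS5, -0.23 to 0.05 for DANCR and -0.02 to 0.43 for OIP5-AS1. In MEL1 it was -0.24 to 0.49 for GAS5, -0.15 to 0.08 for SNHG1, -0.12 to 0.14 for TUG1 and -0.13 to 0.04 for OIP5-AS1. Between the knockdown effects it was -0.36 to 0.07 for OIP5-AS1, and in MEL1 against H1 -0.29 to 0.05 for NEAT1, -0.22 to 0.02 for GAS5 and -0.01 to 0.14 for OIP5-AS1.

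Counts of all genes called ranged, when leaving out libraries and over the other settings, from 11 to 280 and 40 to 2688 over both lines (53 as reported), 123 to 1842 and 1620 to 3256 in the H1 average (1783), 206 to 2766 and 2533 to 4160 with KD1 (2758), 62 to 400 and 310 to 1745 with KD2 (384), 108 to 881 and 655 to 2290 with KD3 (741), 154 to 1139 and 720 to 3384 between hairpins (881), 507 to 2081 and 555 to 2703 in MEL1 (1107), and 34 to 565 and 82 to 1369 between the knockdown effects (149).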

Other observations

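Other long noncoding RNAs were followed through a list of 15, chosen with earlier results of these data known, of which 13 were tested. In the H1 average 1 was called higher and 2 lower, with a median of 0.35, where 7.16% of all genes were called and 2.23% were called higher. MIAT, a nuclear RNA of developing neurons and retina, rose in H1 from 234 and 138 CPM to between 319 and 713 CPM (log2 1.41, SE 0.23, adjusted p = 0.0126, edgeR quasi-likelihood test). The MEL1 libraries had MIAT at 68.4 CPM under SCR and at 67.9 to 116 CPM under the hairpins. MIR302CHG, the host of the miR-302 cluster of pluripotent cells, fell in H1 from 34.9 and 41.9 CPM to between 19.4 and 25.8 CPM (log2 -0.72, SE 0.15, adjusted p = 0.0215, edgeR). CYTOR fell in H1 from 2.60 and 2.25 CPM to between 0.695 and 1.47 CPM (log2 -1.13, SE 0.25, adjusted p = 0.0241, edgeR). With edgeR, 0 of the 13 were called in MEL1. There were 2 at an unadjusted p under 0.05 in MEL1, and DESeq2 called 1.

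KCNQ1OT1, the unspliced antisense RNA of the KCNQ1 imprinted domain, was chosen after its values were seen because its values lay on the same sides of the controls as those of MALAT1. It was at 2.53 and 2.94 CPM in H1 SCR and 4.57 to 8.23 CPM in H1 knockdown (log2 0.97, SE 0.28, adjusted p = 0.0609), and at 7.82 CPM in MEL1 SCR and 2.52 to 4.48 CPM in MEL1 knockdown (log2 -1.25, SE 0.37, adjusted p = 0.0790). The difference between the lines was -2.28 (SE 0.47, adjusted p = 0.0553, edgeR), so none of these 3 comparisons passed for it.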
